A study of Mus musculus with 23 samples.

Results

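The genes described here are the nuclear protein-coding genes whose symbols mark subunits of the oxidative phosphorylation complexes: the Nduf genes of the a, b, c, s and v series, Sdha to Sdhd, the Uqcr genes, Cox4 to Cox7 and the Atp5 genes. They were chosen by symbol and gene type only, and 81 of 52636 annotated genes met the rule. They comprise 35 genes of complex I, 4 of complex II, 8 of complex III, 17 of complex IV and 15 of complex V. Another 2 genes, Atp5s and Atp5sl, carry Atp5 symbols without being structural subunits of ATP synthase. Polyadenylated RNA had been sequenced from mouse bone marrow-derived macrophages, primary cells grown from marrow, in 23 libraries. The labels name 11 libraries WT and 12 Stk40 KO. Cells were untreated at T0 or had received the bacterial lipopolysaccharide LPS and were taken at T6, T16 or T32, with no unit of time in the labels. Each genotype and time point held 3 libraries, except WT at T16, which held 2. The labels do not say how the knockout was made, nor whether libraries of a group came from separate mice or cultures, so p-values measure the spread between these libraries, which may be technical. Nor do they say whether libraries of different times share a mouse or culture. No age or strain is named in them. In bulk libraries, fewer cells of a type and less RNA per cell cannot be told apart.

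Oxidative phosphorylation takes place in the inner mitochondrial membrane. Complex I takes electrons from NADH and complex II, succinate dehydrogenase, takes them from succinate, which also makes complex II an enzyme of the tricarboxylic acid cycle. Both hand electrons to coenzyme Q, from which they pass through complex III and cytochrome c to complex IV, where oxygen is reduced. Complex V, the ATP synthase, uses the proton gradient built on the way. Most subunits are encoded in the nucleus and a small core in mitochondrial DNA. Macrophages exposed to LPS are known for turning from respiration towards glycolysis, and for succinate oxidation by complex II as a source of reactive oxygen species.

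The promoters of these genes are known for binding sites of the nuclear respiratory factor NRF1, of GABP, which is of the ETS family, and of YY1. RefSeq windows (GRCm38.p6) of 300 bases, 250 before the start and 50 after it, were matched for 67 of the 81 genes and searched on both strands. The NRF1 letters GCGCATGCG stood in windows of 8 of the 67 genes (11.9%) and of 1.95% of 27025 genes in all. The YY1 letters AAGATGGCG stood in 8 of 67 (11.9%) against 1.64%, and in 7 of the 9 windows that held them they lay after the start. The ETS letters CCGGAAGT stood in 5.97% against 4.31%, and the SP1 letters GGGCGG in 41.8% against 38.2%. These are matches of letters, not binding sites. The 3 stretches here were chosen to show the NRF1 and ETS letters in subunit genes of complexes I, IV and III. They are the 150 bases before the RefSeq start or the GENCODE gene start, whichever came first on the strand of the gene. They run 5' to 3' on that strand, with the NRF1 and ETS letters in capitals. The NRF1 letters and their reverse complement overlap in a palindrome, which is capitalised whole. Ndufa11 lies on the plus strand (chr17:56717612-56717761), Cox6a1 and Uqcr11 on the minus strand (chr5:115348982-115349131 and chr10:80406831-80406980).
Ndufa11: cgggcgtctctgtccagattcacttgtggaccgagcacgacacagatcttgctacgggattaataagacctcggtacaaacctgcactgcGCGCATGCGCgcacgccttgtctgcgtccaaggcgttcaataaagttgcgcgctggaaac
Cox6a1: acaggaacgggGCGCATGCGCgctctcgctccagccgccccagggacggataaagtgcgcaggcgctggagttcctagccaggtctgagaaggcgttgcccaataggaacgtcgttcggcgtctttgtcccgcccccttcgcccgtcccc
Uqcr11: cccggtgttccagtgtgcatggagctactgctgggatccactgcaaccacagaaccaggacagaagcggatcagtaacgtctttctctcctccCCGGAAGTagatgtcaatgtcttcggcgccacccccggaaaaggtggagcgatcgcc

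Ndufa11 and Cox6a1, with the NRF1 palindrome, passed no test in any comparison. Uqcr11 also held NRF1 letters, at -5 and across the RefSeq start, outside the stretch printed. Uqcrc1, with these letters after the start, was called in WT at T16. Whether genes with the letters differ from others in their changes was not tested. Cox6a1 stood at 109, 109 and 95.4 CPM in untreated WT libraries and at 97.7, 119.8 and 108 CPM at T32. Here and throughout, CPM are counts relative to library totals, scaled by the trimmed mean of M-values (TMM). Uqcr11 stood at 43.5, 36.6 and 32.9 CPM in untreated WT libraries and at 28.1, 30.3 and 23.8 CPM at T6. Its changes in WT were -0.46 at T6, -0.093 at T16 and -0.50 at T32, none past the test, and it fell by 0.85 at T16 in the libraries labelled KO.

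The libraries held 19455080 to 44097733 counted reads. Stk40 RNA was not lower in the libraries labelled KO: it stood at 39.7 to 52.5 CPM in WT and 51.7 to 61.3 CPM in KO at T0, and over all times it was higher in KO by 0.32 ± 0.078 on the log2 scale (SE, adjusted p = 0.00629, edgeR). A whole-gene count cannot show a deleted part, and genotypes are given here as labelled. The 10 macrophage markers were above 0 in every library and held 1.51% to 3.03% of counts. The highest share in any library was 0.168% for 14 neutrophil, 0.0565% for 10 erythroid, 0.0493% for 10 stromal and 0.00168% for 10 lymphoid markers. No neutrophil or stromal marker was at 0 in any library, while 2 to 7 erythroid and 0 to 5 lymphoid markers were. The subunit genes together held 0.723% to 0.738% of counts in untreated WT libraries.

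Some libraries stood apart from their groups, for the subunit genes and for other short genes alike. The 77 subunit genes that could be tested are short, with a median size of 971 bases against 2818 bases over the 15782 genes tested. They were set beside 330 other genes under 1 kb with a mean of at least 10 CPM, where 1986 genes under 1 kb were tested in all. In replicate 2 of WT T6, 60 of 77 were higher than in the rest of the group, by a median of 0.58 on the log2 scale. There the 330 other genes were higher by a median of 0.47. In replicate 2 of KO T6 these medians were 0.80 and 0.71. Saa3 RNA stood at 22933 CPM in replicate 2 of WT T6, beside 11954 and 6342 CPM. In replicate 2 of KO T6 it stood at 24058 CPM, beside 10138 and 9531 CPM. Mitochondrially encoded RNA held 1.1% of counts in the former, beside 0.474% and 0.464%, and 0.681% in the latter, beside 0.36% and 0.351%. The part of these differences in the subunit values was not tested. Replicate 2 of WT T16 lay above replicate 1 by 0.70 for the subunit genes and by 0.73 for the other short genes, and with 2 libraries it cannot be said which of them stands apart. Replicate 1 of KO T0 differed from the rest of its group by -0.32, and mitochondrially encoded RNA held 0.355% of its counts, against 1.38% to 1.82% in the other untreated libraries. Fits without these libraries, and a fit with the trend on gene size removed from each library, were added after seeing the data. Counts of subunit genes that these fits moved by over 1.5 times are given with each comparison.

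**Figure D1:**
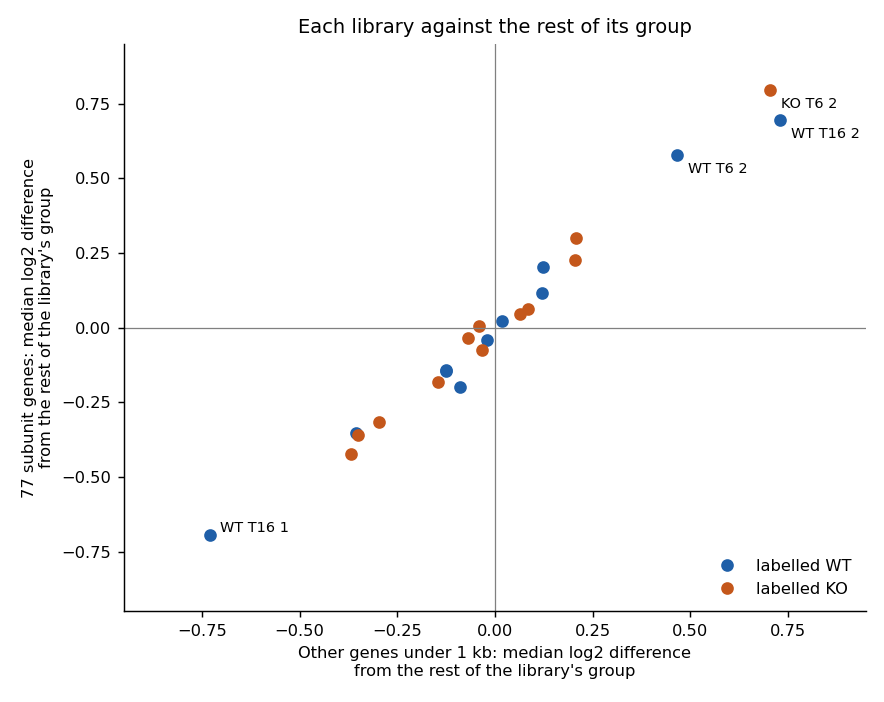
Each point is a library (blue, labelled WT; orange, labelled KO). The horizontal axis gives the median log2 difference of 330 other genes under 1 kb, with a mean of at least 10 CPM, from the rest of the library's group. The vertical axis gives the same for the 77 subunit genes, with replicate 2 of WT T6, KO T6 and WT T16 at 0.58, 0.80 and 0.70. The pair of WT T16 libraries mirror each other by construction.

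Per gene length, the most abundant subunit RNA in untreated WT cells was Cox4i1 (chr8:120668222-120674207, GRCm38), the ubiquitous form of complex IV subunit 4, at 603 ± 51.5 CPM per kb (SD, n = 3). Cox6b1 at 274 ± 25 and Cox5a at 243 ± 30.7 CPM per kb, also of complex IV, followed and did not differ beyond their spread. The median over the 81 genes was 41.4 CPM per kb, with 64 genes above 10 and 17 above 100. Forms known from muscle, testis or lung were rare. Low levels were not limited to them, with Cox7c at 3.4 ± 0.821 and Ndufs5 at 1.74 ± 0.212 CPM per kb. The muscle form Cox6a2 stood at 4.44 ± 0.762 CPM per kb beside 183 ± 13.9 for the ubiquitous Cox6a1. Cox6b2, known from testis, stood at 0.461 ± 0.105 and Cox4i2, known from lung, at 0.0744 ± 0.0251 CPM per kb, and Cox7b2 had no count in any library. Atp5g1, Atp5g2 and Atp5g3 encode the same mature c subunit of ATP synthase, and their levels were 0.433 ± 0.0356, 0 and 192 ± 7.26 CPM per kb. The deposited sizes of Atp5g1 and Atp5g3 were 4912 and 724 bases. Before division by size they stood at 2.13 ± 0.175 and 139 ± 5.25 CPM. Reads were counted only where they aligned uniquely, so genes with near-identical copies are undercounted to an unknown degree. Of the 50-base windows, 15.2% of Atp5l, 52.4% of Atp5o, 61.7% of Atp5g2, 88.9% of Atp5g1 and all of Atp5g3 were found in no other annotated gene. For Cox5a, Cox7c and Ndufs5, named above by their levels, these shares were 68%, 77% and 78.3%. Of the 81 genes, 46 had windows shared with another gene, and in 24 less than 90% of windows were their own. Atp5l, Atp5g2, Cox4i2 and Cox7b2 had too few reads to be tested.

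After LPS, single subunit RNAs changed in both directions in the WT libraries. At T6, 6 of 77 rose and 13 fell, where 27.3% and 31.9% of all genes tested did. At T16, 14 rose and 6 fell, where 18.8% and 17.2% of all genes did, and at T32 10 rose and 8 fell, where 24.5% and 21.9% did. The median log2 changes of the subunit genes were -0.18, -0.018 and -0.12, beside -0.14, -0.015 and 0.00046 over all genes. The 3 comparisons share the T0 libraries. Directions are relative to the TMM scaling. Scaled to library totals, the median of all genes lay at -0.94, -0.45 and -0.31, and 0 of the 6 rises at T6, 3 of 14 at T16 and 4 of 10 at T32 were still called as rises. Without replicate 2 of WT T16, 4 of the 14 rises at T16 were called (Sdhb, Atp5o, Atp5b and Uqcrc2). After removal of the gene size trend, 12 rose at T6, and 16 rose and 17 fell at T32. Without the T6 libraries that stood apart, 30, 14 and 23 fell at T6, T16 and T32. The 6 rises at T6 were 3 without WT T6 replicate 2. The 13 falls at T6 were 6 without WT T0 replicate 1, 7 without WT T6 replicate 3 and 8 without WT T6 replicate 1. The 14 rises at T16 were 4 without WT T16 replicate 2 and 9 without WT T0 replicate 1 or WT T0 replicate 3. The 10 rises at T32 were 6 without WT T0 replicate 1. The 8 falls at T32 were 4 without WT T0 replicate 1 or WT T32 replicate 3, 5 without WT T32 replicate 1 or WT T0 replicate 2 and 16 without KO T6 replicate 2.

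**Figure D2:**
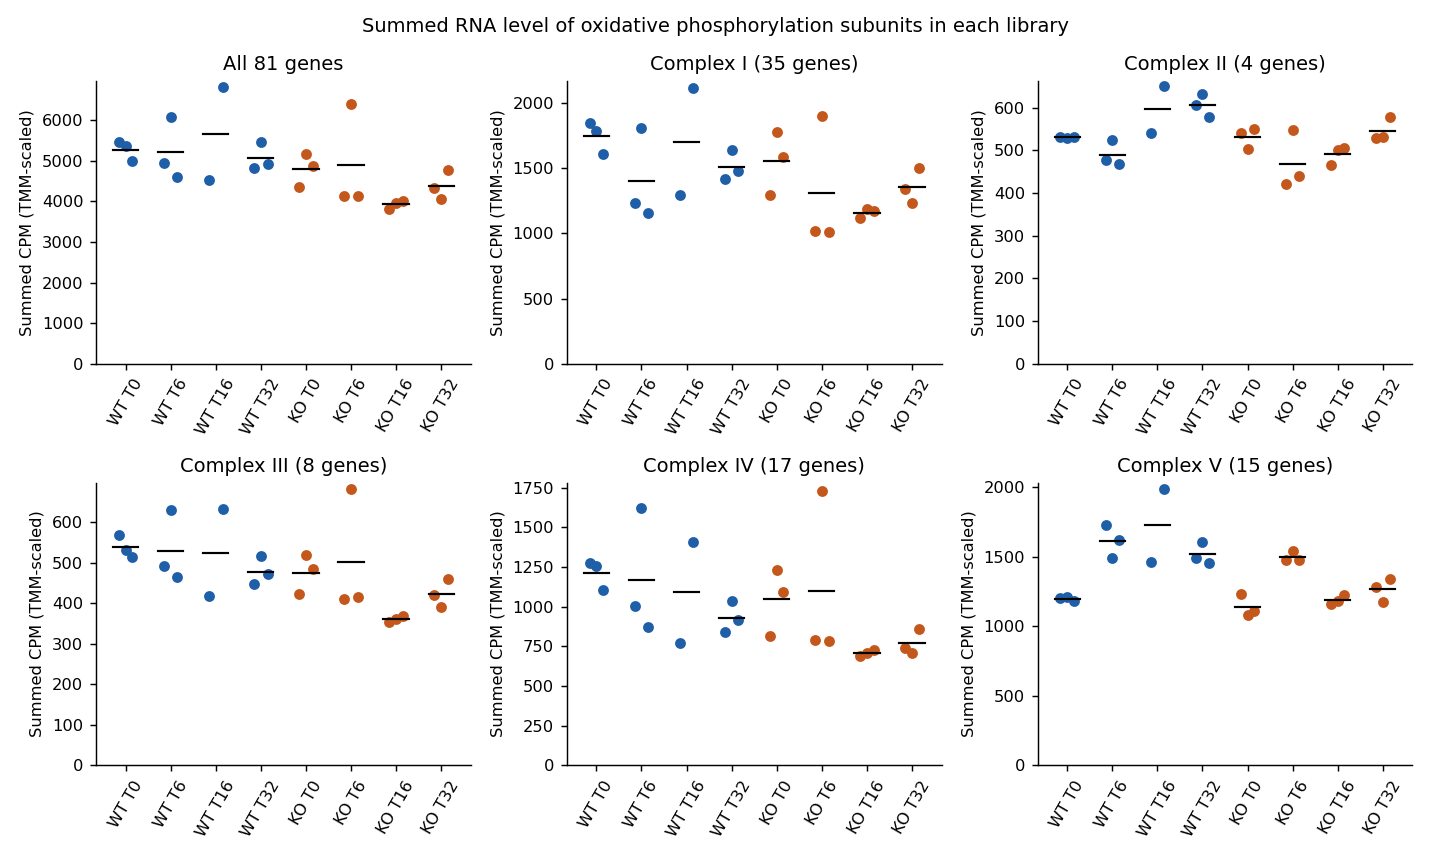
Each point is a library's summed TMM-scaled CPM of all 81 genes or of 1 complex, by group, with the group mean as a line (blue, labelled WT; orange, labelled KO). Complex V sums lay at 1186 to 1213 CPM in untreated WT libraries and at 1460 to 1989 CPM in the WT libraries after LPS, while complex I at T6 had 1159 and 1233 CPM in WT replicates 3 and 1 and 1808 CPM in replicate 2.

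In complex I, 10 of 35 genes fell and 1 rose at T6, beside 31.9% and 27.3% of all genes tested. Ndufb11 (chrX:20615326-20617619), a membrane-arm accessory subunit, stood at 11.4, 12.2 and 9.02 CPM at T0 and at 5.07, 7.55 and 3.94 CPM at T6. The groups did not overlap, and the log2 change was -0.98 ± 0.22 (SE, adjusted p = 0.00059, edgeR). Ndufs7, an iron-sulfur subunit next to the coenzyme Q site, stood at 88.2, 73.5 and 75.6 CPM and then at 35.4, 63.5 and 34.4 CPM, with replicate 2 the high library at T6, and changed by -0.84 ± 0.29 (SE, adjusted p = 0.0177, edgeR). The accessory subunits Ndufa6 and Ndufb10 fell by 0.82 and 0.81 on the log2 scale. Ndufv1, the flavin-binding subunit that oxidises NADH, stood at 57.2, 55.2 and 51.3 CPM and then at 42.4, 39.4 and 43.6 CPM. All T6 values lay below all T0 values, and the change was -0.38 ± 0.12 (SE, adjusted p = 0.009, edgeR). With the gene size trend removed it was -0.12 (adjusted p = 0.328, edgeR). Ndufs1, the largest iron-sulfur subunit, had a change of -0.066 that did not pass the test. Ndufs4, an accessory subunit, rose from 35.7, 35.7 and 35.9 CPM to 48.7, 78.5 and 41.4 CPM, with replicate 2 again highest, a change of 0.65 ± 0.25 (SE, adjusted p = 0.0327, edgeR). With 1 library left out, edgeR's test no longer called Ndufs7 at T6 (any of 3 libraries, the highest adjusted p, 0.0841, without WT T6 replicate 1), Ndufb10 at T6 (any of 5 libraries, the highest adjusted p, 0.138, without WT T6 replicate 3), Ndufv1 at T6 (without WT T0 replicate 1, adjusted p = 0.0513) and Ndufs4 at T6 (any of 4 libraries, the highest adjusted p, 0.256, without WT T6 replicate 2).

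At T16 and T32, 1 and 1 of 35 complex I genes were called lower than at T0, and 4 and 3 higher, where 17.2% and 21.9% of all genes were lower and 18.8% and 24.5% higher. From T6 to T32, 9 of 35 rose and 2 fell, and over all 77 genes 13 rose and 6 fell, where 27.5% and 23% of all genes did. The 13 rises from T6 to T32 were 8 without WT T32 replicate 2. The 6 falls from T6 to T32 were 2 without WT T32 replicate 1 or WT T32 replicate 3 and 3 without WT T6 replicate 2. Without the T6 libraries that stood apart 22 rose, and with the gene size trend removed 15 fell. Ndufc2, Ndufs8 and Ndufb11 rose by 0.68, 0.67 and 0.61 on the log2 scale, and Ndufs4 fell by 0.63. Ndufb11 was still lower than at T0 at T16 (-0.70 ± 0.24), and its change of -0.37 at T32 did not pass the test. Ndufs3, a core subunit, stood at 12.3, 10.5 and 11.4 CPM at T0, 15.7 and 22.8 CPM at T16 and 15.1, 19.4 and 16.4 CPM at T32. Each later library lay above each T0 library, with changes of 0.76 ± 0.18 and 0.57 ± 0.17. The accessory subunit Ndufb2 rose by 0.76 and 0.79, and Ndufa1, another accessory subunit, fell by 0.84 at T32. In edgeR's test, leaving out 1 library ended the call for Ndufb11 from T6 to T32 (any of 4 libraries, the highest adjusted p, 0.128, without WT T6 replicate 3), Ndufs4 from T6 to T32 (any of 9 libraries, the highest adjusted p, 0.323, without WT T6 replicate 2), Ndufb11 at T16 (any of 3 libraries, the highest adjusted p, 0.197, without WT T16 replicate 1) and Ndufs3 at T16 (without WT T16 replicate 2, adjusted p = 0.104). Calls that 1 library could end in edgeR's test were those for Ndufb2 at T16 (without WT T16 replicate 2, adjusted p = 0.161) and Ndufa1 at T32 (any of 5 libraries, the highest adjusted p, 0.0893, without WT T32 replicate 3).

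In complex II 1 of 4 subunits changed in WT. Sdhb (chr4:140961203-140979193), which holds the iron-sulfur clusters, stood at 103, 96.1 and 89.5 CPM in untreated WT libraries, 84.7, 78.2 and 83.3 CPM at T6, 144 and 231 CPM at T16 and 156, 156 and 153 CPM at T32. Every T16 and T32 library lay above every T0 library. The changes were 0.96 ± 0.15 (SE, adjusted p = 3.5e-05, edgeR) at T16 and 0.69 ± 0.13 (SE, adjusted p = 0.00038, edgeR) at T32, and without replicate 2 of WT T16 the first was 0.58 (adjusted p = 0.00314, edgeR). Sdha, the flavoprotein that oxidises succinate, lay between 147 and 198 CPM in all 11 WT libraries, and its changes of -0.0043, -0.12 and 0.12 did not pass the test. Those of the membrane anchors Sdhc (-0.077, -0.0062 and -0.059) and Sdhd (-0.22, -0.13 and 0.065) did not either.

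Genes of complex III changed in both directions. The Rieske iron-sulfur protein Uqcrfs1 (chr13:30540308-30545362) stood at 73.5, 71.2 and 69.8 CPM in untreated WT libraries, rose to 89.2, 120.4 and 85.1 CPM at T6, and then stood at 47.1 and 55.6 CPM at T16 and 52.6, 61.1 and 53.4 CPM at T32. The rise at T6 was 0.46 ± 0.17 (SE, adjusted p = 0.0266, edgeR). All T16 and T32 libraries lay below all T0 libraries, but -0.48 and -0.36 did not pass the test, while the fall from T6 to T32 did (-0.82 ± 0.17, SE, adjusted p = 0.0005, edgeR). With the gene size trend removed, the T16 value was -0.41 and passed it (adjusted p = 0.0181, edgeR). The core protein Uqcrc2 rose at all 3 times, by 0.39, 0.59 and 0.54, its T6 and T0 groups overlapping. Uqcrc1, its partner, rose at T16 (0.42 ± 0.14). Uqcrh, the hinge protein beside cytochrome c1, fell at T32, from 108, 111 and 89.7 CPM at T0 to 43.7, 57.5 and 48.7 CPM, a change of -1.04 ± 0.36 (SE, adjusted p = 0.0231, edgeR). With 1 library left out, edgeR's test no longer called Uqcrfs1 at T6 (any of 3 libraries, the highest adjusted p, 0.167, without WT T6 replicate 2), Uqcrc2 at T6 (any of 2 libraries, the highest adjusted p, 0.0878, without WT T6 replicate 3), Uqcrc1 at T16 (any of 3 libraries, the highest adjusted p, 0.454, without WT T16 replicate 2) and Uqcrh at T32 (any of 4 libraries, the highest adjusted p, 0.0794, without WT T32 replicate 1).

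In complex IV, Cox4i1 fell late. It stood at 474, 492 and 417 CPM in untreated WT libraries, 364, 582 and 318 CPM at T6, 232 and 419.5 CPM at T16 and 249, 281 and 257 CPM at T32. The groups overlapped with T0 at T6 and T16 and not at T32, where the change was -0.81 ± 0.28 (SE, adjusted p = 0.021, edgeR). Cox5a, a subunit on the matrix side, had changes of 0.054, 0.29 and 0.035 that did not pass the test. Cox7a2l (chr17:83501918-83517330), known for joining complexes III and IV into supercomplexes, stood at 100.5, 95.6 and 80.2 CPM at T0, 51.4, 70.8 and 45.7 CPM at T6, 35.3 and 50.9 CPM at T16 and 47.5, 53 and 48 CPM at T32. Every library after LPS lay below every T0 library, and it fell by 0.72, 1.10 and 0.90 on the log2 scale. In edgeR's test, leaving out 1 library ended the call for Cox4i1 at T32 (any of 4 libraries, the highest adjusted p, 0.0639, without WT T32 replicate 1).

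In 4 pairs of related complex IV genes, the rarer member changed at T16 and T32 in WT and the abundant one did not pass the test. Cox7a1, the muscle form, stood at 2.77, 2.19 and 2.5 CPM at T0 and 1.18, 1.23 and 0.713 CPM at T32 and fell by 1.13 at T16 and 1.24 at T32. Cox7a2, the ubiquitous form, had changes of 0.42, 0.55 and 0.21. Cox6a2 rose at T16 (0.96 ± 0.30) and T32 (0.87 ± 0.27), from 2.57, 3.59 and 2.9 CPM at T0 to 5.32, 4.67 and 6.61 CPM at T32, and Cox6a1 had changes of 0.034, 0.22 and 0.052. Cox6b2 fell by 2.69 and 3.20 on very few reads, 9, 12 and 12 at T0 and 1, 3 and 0 at T32, while Cox6b1 had changes of 0.071, 0.061 and -0.22. Ndufa4, a complex IV subunit despite its name, had changes of -0.18, -0.48 and -0.51. Its relative Ndufa4l2, known from hypoxic cells, rose by 2.19 and 1.91, with 2, 11 and 6 reads at T0 and 37, 18 and 31 at T32. Cox7b had changes of -0.21, -0.29 and 0.064. In the libraries labelled KO, the abundant members Ndufa4 at T32 and Cox7a2 at T6 were called, as lower and as higher. Leaving out any of 4 libraries ended the call for Ndufa4, and any of 9 that for Cox7a2 (edgeR). Whether the members of a pair differ in their change was not tested. Calls that 1 library could end in edgeR's test were those for Cox7a1 at T16 (any of 4 libraries, the highest adjusted p, 0.241, without WT T16 replicate 1), Cox6a2 at T16 (any of 2 libraries, the highest adjusted p, 0.624, without WT T16 replicate 2), Cox6a2 at T32 (any of 2 libraries, the highest adjusted p, 0.0631, without WT T32 replicate 3) and Cox6b2 at T16 (any of 2 libraries, the highest adjusted p, 0.266, without WT T16 replicate 1). With 1 library left out, edgeR's test no longer called Ndufa4l2 at T16 (any of 3 libraries, the highest adjusted p, 0.22, without WT T16 replicate 2) and Ndufa4l2 at T32 (any of 4 libraries, the highest adjusted p, 0.106, without WT T0 replicate 1).

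Of 13 complex V genes tested, 3 rose at T6, 5 at T16 and 3 at T32, beside 27.3%, 18.8% and 24.5% of all genes tested. Atp5b (chr10:128083273-128090391), the catalytic beta subunit, stood at 219, 231 and 236 CPM in untreated WT libraries, 507, 296 and 493 CPM at T6, 465 and 574 CPM at T16 and 456, 457 and 432 CPM at T32. Every library after LPS lay above every untreated one, and replicate 2 was the low library at T6. The changes were 0.92 ± 0.21 (SE, adjusted p = 0.00071, edgeR), 1.18 ± 0.22 and 0.97 ± 0.21. Scaled to library totals they were 0.11 (adjusted p = 0.607, edgeR), 0.73 and 0.66, the later pair still called. Atp5a1, the alpha subunit, stood at 290.1, 310.0 and 297 CPM at T0 and 496, 342 and 469 CPM at T6. It rose at T6 (0.54 ± 0.13) and T16 (0.39 ± 0.15), and 0.29 at T32 did not pass the test. Atp5f1, subunit b of the stator, rose at T6 (0.56 ± 0.17) and fell by 0.59 from T6 to T32. Atp5o, which joins the stator to the head, rose by 1.01 at T16 and 0.65 at T32, and the rotating gamma subunit Atp5c1 by 0.67 and 0.57. The c subunit genes did not pass the test in WT, with 0.23, -0.018 and -0.12 for Atp5g3 and -0.80, -0.64 and -1.18 for Atp5g1. In edgeR's test, leaving out 1 library ended the call for Atp5a1 at T16 (any of 16 libraries, the highest adjusted p, 0.19, without WT T16 replicate 2), Atp5f1 at T6 (without WT T6 replicate 2, adjusted p = 0.0565), Atp5c1 at T16 (any of 2 libraries, the highest adjusted p, 0.16, without WT T16 replicate 2) and Atp5c1 at T32 (any of 3 libraries, the highest adjusted p, 0.0601, without WT T0 replicate 1).

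Atp5s and Atp5sl had the lowest log2 changes of the 77 genes at T6. Atp5sl (chr7:25619414-25625551), also named Dmac2 and known from assembly of the distal membrane arm of complex I, stood at 40.3, 34.6 and 35.6 CPM at T0, 8.74, 11.2 and 10.3 CPM at T6, 18.6 and 20.6 CPM at T16 and 20.5, 23.5 and 20.2 CPM at T32. No library after LPS overlapped with T0, and the changes were -1.87 ± 0.16 (SE, adjusted p = 5.8e-09, edgeR), -0.91 ± 0.18 and -0.78 ± 0.16. Atp5s, coupling factor B, is named here after its values were seen, since its mean over the T0 and T6 libraries, 3.53 CPM, is below the 5 CPM set for naming genes. It stood at 7.3, 4.91 and 5.81 CPM at T0 and 0.834, 1.33 and 0.971 CPM at T6, and fell by 2.54 on the log2 scale.

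**Figure D3:**
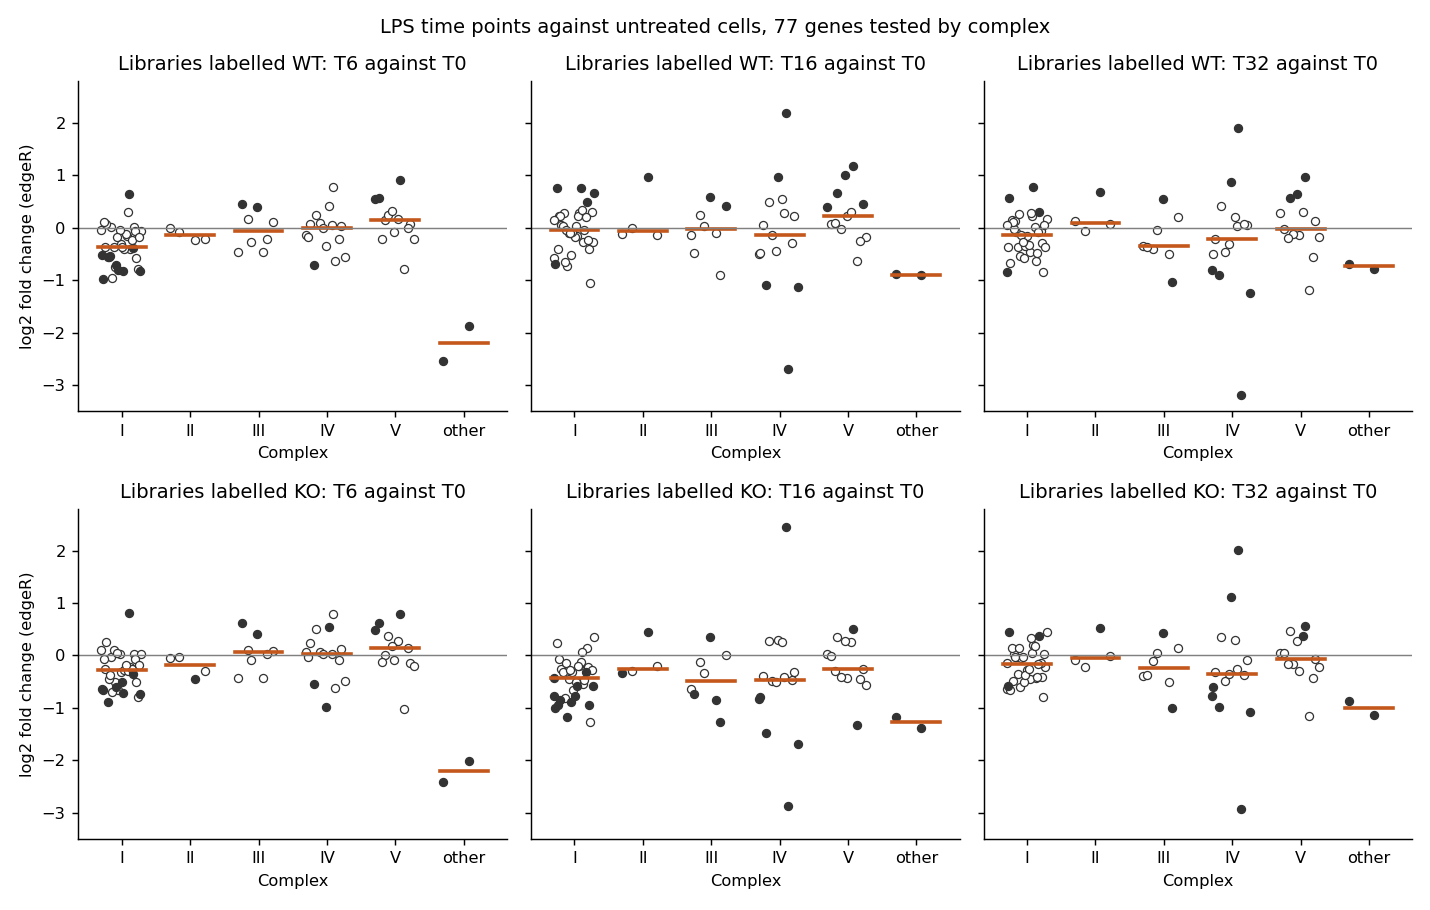
Each circle is a gene, placed by complex at its log2 fold change against T0 within a label; filled circles passed the test (edgeR, adjusted p under 0.05) and orange lines are medians. In WT at T6 the complex I median is -0.37 and that of complex V 0.14, and Atp5s and Atp5sl lie lowest.

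The libraries labelled KO have T0 libraries of their own. At T6, 7 of 77 genes rose and 13 fell, where 26.2% and 32.4% of all genes did, and without the T6 libraries that stood apart 41 fell. At T32, 8 rose and 9 fell, where 18.2% and 20% did, and from T6 to T32 10 rose and 9 fell, where 26.4% and 23.3% did. Removing the gene size trend gave 14 rises at T6 and 13 at T32. Without the T6 libraries that stood apart, 21 fell at T32, and 25 rose and 3 fell from T6 to T32. Without KO T0 replicate 1 and WT T16 replicate 2 together, 14 fell at T32. Scaled to library totals, 0 of the 7 rises at T6, 1 of 4 at T16 and 1 of 8 at T32 were still called as rises. The 13 falls at T6 were 8 without KO T6 replicate 1 or KO T6 replicate 3 and 34 without KO T6 replicate 2. The 8 rises at T32 were 2 without KO T0 replicate 2, 3 without KO T32 replicate 3, 4 without KO T32 replicate 1 and 5 without KO T0 replicate 3. The 9 falls at T32 were 4 without KO T32 replicate 1 or KO T0 replicate 2, 5 without KO T32 replicate 2 and 16 without KO T6 replicate 2. The 10 rises from T6 to T32 were 4 without KO T32 replicate 3, 5 without KO T6 replicate 3 and 19 without KO T6 replicate 2. The 9 falls from T6 to T32 were 2 without KO T6 replicate 2 and 4 without KO T32 replicate 1 or KO T32 replicate 2. Sdhb stood at 106, 89.3 and 95.5 CPM at T0, 68.7, 76.4 and 67.2 CPM at T6, 124, 142 and 128 CPM at T16 and 136, 135 and 145 CPM at T32. It fell at T6 (-0.46 ± 0.13, SE, adjusted p = 0.00613, edgeR) and rose above T0 at T16 and T32, by 0.44 and 0.52. Atp5b stood at 322, 177 and 224 CPM at T0, 451, 316 and 479 CPM at T6, 341, 339 and 352 CPM at T16 and 382, 325 and 365 CPM at T32, with replicate 1 high at T0, and rose by 0.78, 0.51 and 0.57. Uqcrfs1 rose by 0.62 at T6 and fell by 0.74 at T16. Of complex I, Ndufs8, Ndufa6, Ndufs7, Ndufb11, Ndufv3 and Ndufv1 fell at T6, by 0.89, 0.74, 0.73, 0.66, 0.64 and 0.35 on the log2 scale. Atp5sl fell by 2.01, 1.38 and 1.14. Cox6a2 stood at 3.39, 3.67 and 3.72 CPM at T0, 1.69, 1.77 and 1.96 CPM at T6, 4.69, 4.05 and 4.46 CPM at T16 and 7.68, 6.7 and 8.99 CPM at T32, falling at T6 (-0.99 ± 0.29) and rising at T32 (1.12 ± 0.27). Calls that 1 library could end in edgeR's test were those for Sdhb at T16 (any of 2 libraries, the highest adjusted p, 0.0549, without KO T0 replicate 2), Atp5b at T16 (any of 16 libraries, the highest adjusted p, 0.237, without KO T0 replicate 2), Atp5b at T32 (any of 4 libraries, the highest adjusted p, 0.185, without KO T0 replicate 2) and Ndufs7 at T6 (any of 5 libraries, the highest adjusted p, 0.174, without KO T6 replicate 3). With 1 library left out, edgeR's test no longer called Ndufb11 at T6 (without KO T6 replicate 3, adjusted p = 0.0725) and Ndufv1 at T6 (any of 2 libraries, the highest adjusted p, 0.0648, without KO T6 replicate 1).

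At T16, 24 of 77 genes fell and 4 rose in the libraries labelled KO, where 23.3% and 20.4% of all genes did. The median was -0.39, beside -0.05 over all genes, and 61 of 77 values were below 0. Complex I held 12 of the falls and complex IV 5. Uqcrh, Ndufa5, Ndufb11 and Cox7a2l fell by 1.28, 1.18, 1.01 and 1.48 on the log2 scale. Cox4i1 stood at 201, 217 and 212 CPM, below the 286, 439.6 and 389 CPM of its untreated libraries (-0.82 ± 0.28, SE, adjusted p = 0.0207, edgeR). Sdha changed by -0.33 ± 0.11, its groups overlapping through T0 replicate 2. The 4 rises were Atp5b, Sdhb, Uqcrc2 (0.35) and Ndufa4l2 (2.45). With the gene size trend removed, 22 of the 24 falls and 4 of the 4 rises were still called, and 10 genes rose in all. Without KO T0 replicate 1 and WT T16 replicate 2 together, 7 rose. The 4 rises at T16 were 1 without KO T16 replicate 2 or KO T0 replicate 2 and 2 without KO T16 replicate 1 or KO T16 replicate 3 or KO T0 replicate 3. The 24 falls at T16 were 13 without KO T0 replicate 2, 14 without KO T16 replicate 1 and 15 without KO T0 replicate 3. Of 14 neutrophil markers, 11 fell and 2 rose, Lcn2 (4.87) and Mmp8 (1.08). Lcn2 also rose in KO at T6 (3.85) and in WT at T16 (4.57). The summed share of the 14 markers went from 0.0876% to 0.104% of counts at T0 to 0.151% to 0.168% at T16. The 10 erythroid markers held 0.0441% to 0.0497% at T0 and 0.00263% to 0.00295% at T16, the 10 macrophage markers 2.33% to 3.03% and 1.93% to 2.12%. The part of other cell types in these changes was not tested. In edgeR's test, leaving out 1 library ended the call for Ndufa5 at T16 (any of 3 libraries, the highest adjusted p, 0.106, without KO T0 replicate 2), Cox4i1 at T16 (any of 4 libraries, the highest adjusted p, 0.089, without KO T0 replicate 2), Sdha at T16 (any of 3 libraries, the highest adjusted p, 0.112, without KO T0 replicate 1) and Uqcrc2 at T16 (any of 5 libraries, the highest adjusted p, 0.215, without KO T0 replicate 2).

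**Figure D4:**
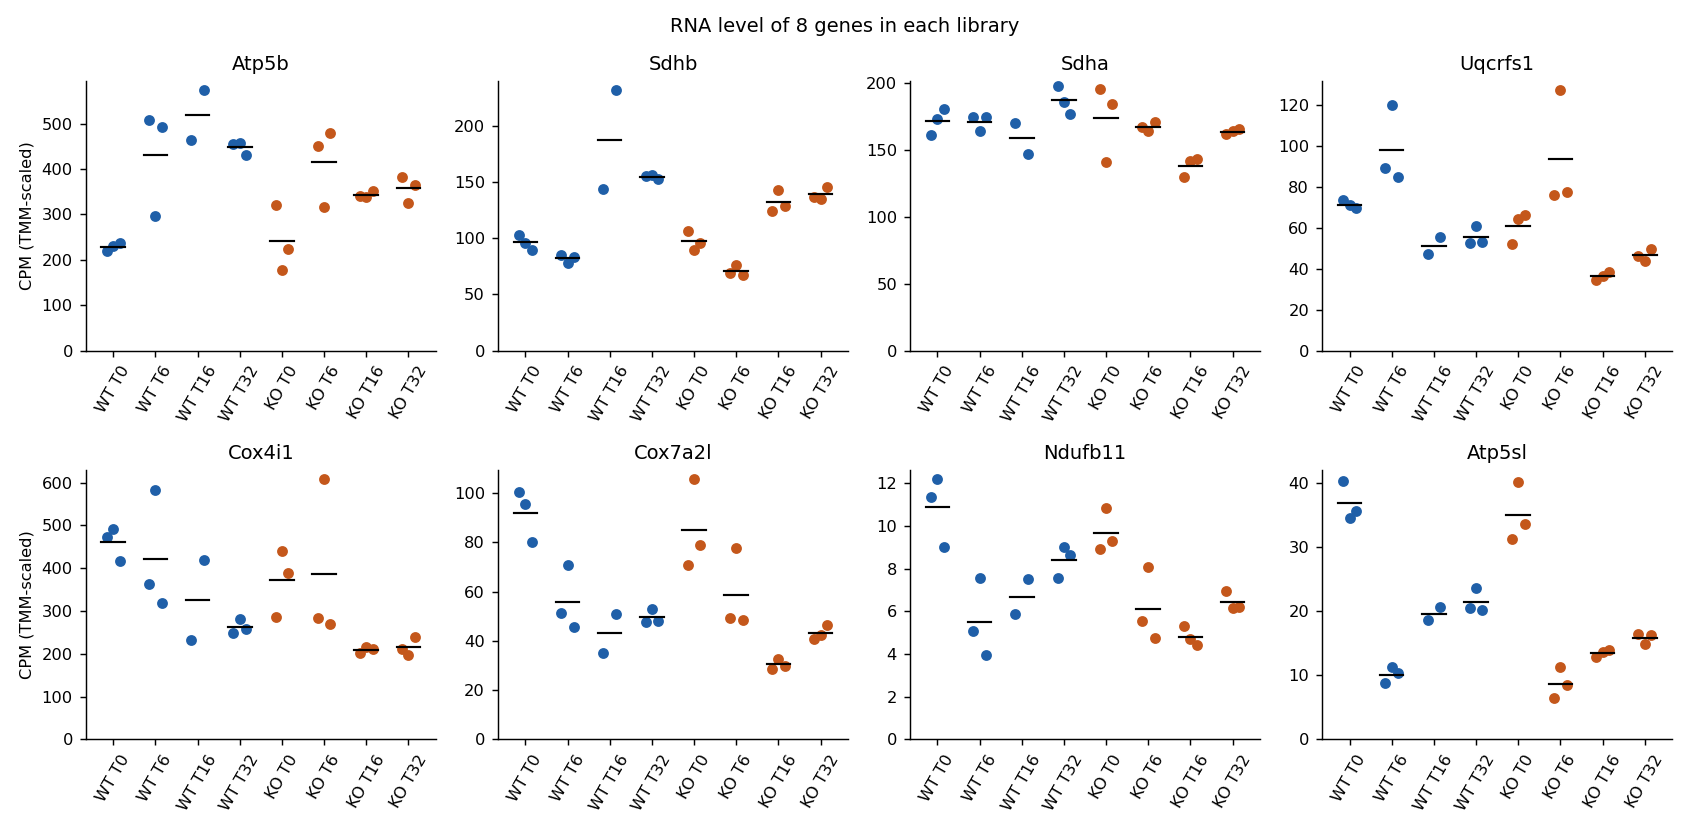
TMM-scaled CPM of 8 genes in each library (blue, labelled WT; orange, labelled KO), with group means as lines and each vertical axis starting at 0. Sdhb lies higher at T16 and T32 than at T0 under both labels, Sdha between 147 and 198 CPM in WT, and Uqcrfs1 highest at T6.

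Libraries labelled KO were compared with those labelled WT at each time. At T0 no subunit gene passed edgeR's test, where 1.83% of all genes were higher and 0.114% lower, 0 of 77 had an unadjusted p under 0.05, and DESeq2 called 0. At T6 none passed either, where 0.209% were higher and 0.0887% lower, 1 of 77 had an unadjusted p under 0.05, and DESeq2 called 0. At T32 none passed, where 3.05% were higher and 3.34% lower, 6 had an unadjusted p under 0.05, DESeq2 called 2 as lower, and a fit to the T32 libraries alone called 9. The count at T32 was 1 lower with the gene size trend removed, 3 without the T6 libraries that stood apart and 2 without KO T0 replicate 1 and WT T16 replicate 2 together. The medians at T0, T6 and T32 were -0.16, -0.093 and -0.19, beside 0.0023, -0.0087 and -0.012 over all genes, and -0.10, -0.048 and -0.069 with the gene size trend removed.

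At T16, 11 of 77 genes were lower in the libraries labelled KO and none was higher (edgeR, 0 higher at an unadjusted p under 0.05, 0 by DESeq2), where 3.48% of all genes were lower and 4.16% higher. The median was -0.54, beside -0.012 over all genes, and 76 of 77 values were below 0. Ndufs8 (chr19:3908863-3912774), an iron-sulfur subunit of complex I, stood at 12.2, 14.7 and 12.2 CPM in KO and 20.5 and 36.2 CPM in WT, a difference of -1.12 ± 0.22 (SE, adjusted p = 0.00498, edgeR). Ndufv1 stood at 41.4, 38.2 and 38.5 CPM in KO and 52 and 73.2 CPM in WT (-0.67 ± 0.13, SE, adjusted p = 0.00498, edgeR). Uqcr11, a small subunit of complex III whose upstream stretch is printed above, stood at 17.4, 19.6 and 18.9 CPM in KO and 24.1 and 46.5 CPM in WT (-0.92 ± 0.26). Atp5d, the delta subunit of the ATP synthase stalk, stood at 85.8, 89.8 and 93.6 CPM in KO and 111 and 197 CPM in WT (-0.78 ± 0.17). Atp5o, Ndufb2, Ndufv3, Uqcrc1 and Sdhb differed by -0.73, -0.73, -0.71, -0.54 and -0.51. The remaining 2, Ndufa9 and Ndufa10, fall outside the rule for naming and are named after their values were seen. In all 11 genes replicate 2 of WT lay above replicate 1, as it did in 73 of the 77. Calls that 1 library could end in edgeR's test were those for Ndufs8 at T16 (without WT T16 replicate 2, adjusted p = 0.187), Ndufv1 at T16 (without WT T16 replicate 2, adjusted p = 0.152), Uqcr11 at T16 (any of 4 libraries, the highest adjusted p, 0.643, without WT T16 replicate 2) and Atp5d at T16 (without WT T16 replicate 2, adjusted p = 0.379). With 1 library left out, edgeR's test no longer called Atp5o at T16 (any of 2 libraries, the highest adjusted p, 0.548, without WT T16 replicate 2), Ndufb2 at T16 (any of 3 libraries, the highest adjusted p, 0.468, without WT T16 replicate 2), Ndufv3 at T16 (any of 3 libraries, the highest adjusted p, 0.514, without WT T16 replicate 2) and Uqcrc1 at T16 (any of 4 libraries, the highest adjusted p, 0.459, without WT T16 replicate 2). In edgeR's test, leaving out 1 library ended the call for Sdhb at T16 (any of 10 libraries, the highest adjusted p, 0.796, without WT T16 replicate 2).

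These T16 calls depended on single libraries. Without WT T16 replicate 2, 0 of the 11 were called and the median was -0.19. The count of 11 was 3 without KO T16 replicate 1, 5 without KO T16 replicate 3 and 17 without KO T6 replicate 2, which enters through the shared spread. Without WT T16 replicate 1, 37 genes were lower and the median was -0.88. A fit to the T16 libraries alone called 0, with a median of -0.56. Other genes under 1 kb had a median difference of -0.20 and other genes over 4 kb one of 0.21. With the gene size trend removed, 7 of the 11 calls remained and the median was -0.36, with Ndufb2 at -0.89 and Ndufs8 at -0.87. Without the T6 libraries that stood apart, 35 genes were lower. WT T16 replicate 2 was also the 1 library at T16 with RNA of Y-linked genes, which 4 of 11 WT libraries and 0 of 12 KO libraries had. With a term for the sex of the culture, 4 genes were lower. The 14 neutrophil markers, Lcn2 among them, held 0.151% to 0.168% of counts in KO and 0.0598% and 0.123% in WT at T16. None of the 14 was at 0 in any library. The 10 macrophage markers held 1.93% to 2.12% in KO and 2.6% and 2.61% in WT, and the 10 stromal markers 0.0145% to 0.0309% and 0.0411% and 0.0478%. In each of these 3 lists 1 gene passed the test, as higher in KO. The part of these markers in the result was not tested.

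Averaged over the 4 times, 19 of 77 genes were lower in the libraries labelled KO and none was higher (edgeR, 0 higher at an unadjusted p under 0.05, 0 by DESeq2), where 10.3% of all genes were lower and 12.1% higher. The median was -0.26, beside -0.015 over all genes. Complex I held 9 of them, complex II 1, complexes III and V 3 each and complex IV 2, beside Atp5sl. Among the called genes with a mean of at least 5 CPM, the largest differences were in Ndufs8 (-0.54 ± 0.10, SE, adjusted p = 0.00092, edgeR), Ndufb2 (-0.37), Ndufv3 (-0.36), Ndufc1 (-0.36), Atp5d (-0.36) and Uqcr11 (-0.35). Of the core genes, Ndufv1 (-0.29 ± 0.061, SE, adjusted p = 0.00203, edgeR), Uqcrfs1 (-0.26), Uqcrc1 (-0.25), Atp5a1 (-0.25) and Sdhb (-0.22) were lower. Sdha, Sdhc, Sdhd, Ndufs1, Cox4i1, Cox5a and Atp5b, at -0.10, -0.24, 0.036, -0.085, -0.34, -0.38 and -0.23, did not pass the test. The complex IV genes were Cox7b (-0.33) and Ndufa4 (-0.31). Without WT T16 replicate 2, 10 of the 19 were called, and with the gene size trend removed 11. Without KO T0 replicate 1 and WT T16 replicate 2 together 11 were lower, without the T6 libraries that stood apart 46, and with a term for the sex of the culture, 8. The 19 falls on average were 10 without WT T16 replicate 2, 11 without KO T6 replicate 3, 12 without KO T6 replicate 1 or KO T32 replicate 2, 35 without WT T16 replicate 1 and 55 without KO T6 replicate 2. The average counts each library alone. When counts were summed over T0, T6 and T32 for libraries of a label with the same place in the order of sample numbers, 3 KO sums against 3 WT sums, edgeR called 0 of 78 subunit genes, 8 had an unadjusted p under 0.05, and 131 of 16147 genes were called in all; this fit also leaves T16 out. Calls that 1 library could end in edgeR's test were those for Ndufc1 on average (any of 5 libraries, the highest adjusted p, 0.106, without WT T16 replicate 2), Uqcr11 on average (any of 17 libraries, the highest adjusted p, 0.216, without WT T16 replicate 2), Uqcrfs1 on average (any of 15 libraries, the highest adjusted p, 0.105, without WT T16 replicate 2) and Sdhb on average (any of 4 libraries, the highest adjusted p, 0.132, without WT T16 replicate 2). With 1 library left out, edgeR's test no longer called Cox7b on average (any of 11 libraries, the highest adjusted p, 0.103, without WT T16 replicate 2) and Ndufa4 on average (any of 17 libraries, the highest adjusted p, 0.185, without WT T16 replicate 2).

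Whether LPS acted differently under the labels was tested over all times at once. No subunit gene passed (edgeR), where 0.456% of all genes did. At an unadjusted p under 0.05 there were 5 of 77, DESeq2 called 0, and the lowest adjusted p was 0.306. Without WT T16 replicate 1, 6 genes passed. The larger number of falls at T16 in the libraries labelled KO is thus not shown to differ from WT by this test.

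**Figure D5:**
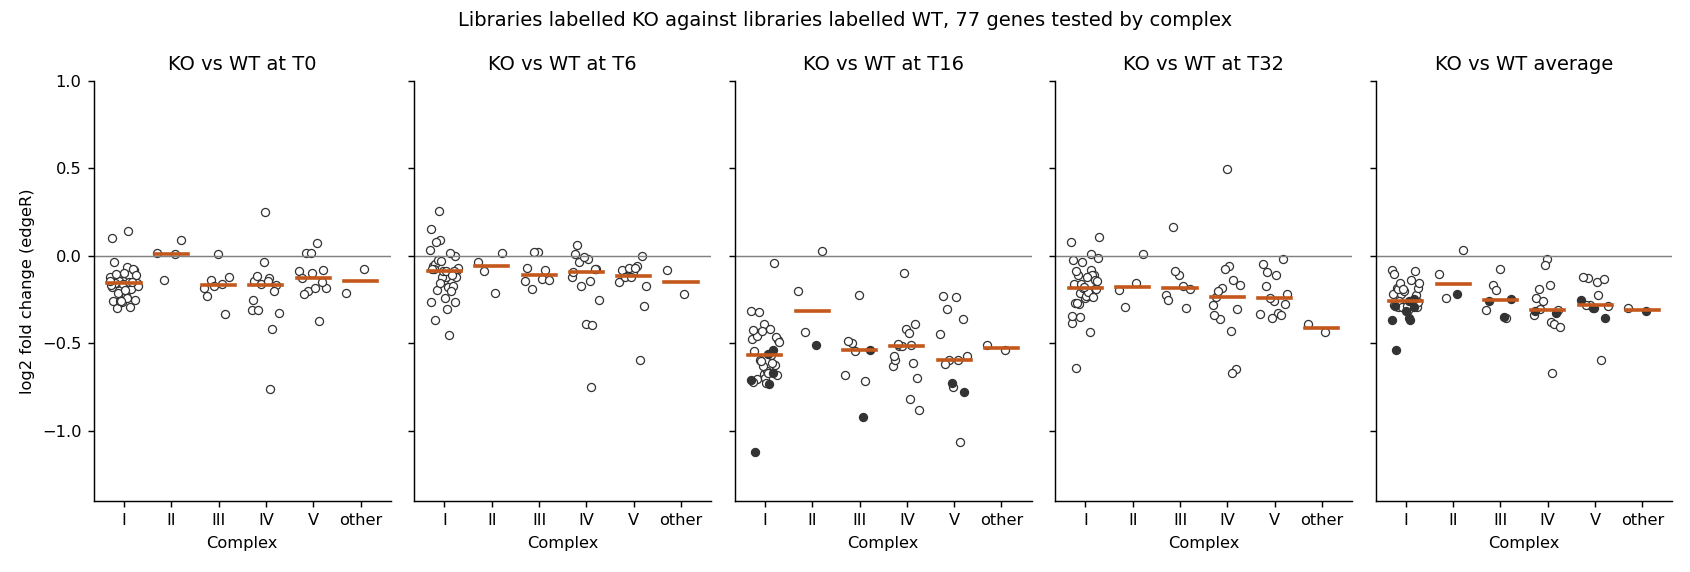
Each circle is a gene, placed by complex at its log2 fold change between libraries labelled KO and WT at each time and on average; filled circles passed the test (edgeR, adjusted p under 0.05) and orange lines are medians. No circle is filled at T0, T6 or T32, and the 11 filled ones at T16 lie below 0, of which 0 were called without WT T16 replicate 2.

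The 13 subunits encoded in mitochondrial DNA, 11 of them tested, passed no test at T6 (edgeR, 0 at an unadjusted p under 0.05 in WT and 0 in KO), with a median change of -0.32 in WT. At T16, 9 of 11 fell in WT and 10 in the libraries labelled KO, where 17.2% and 23.3% of all genes did, led in WT by mt-Nd2 (-2.17) and mt-Nd1 (-2.06), subunits of complex I, and mt-Cytb (-1.92), of complex III. Their share of counts was 1.38% to 1.68% in untreated WT libraries and 0.233% and 0.389% at T16, and the untreated KO library that stood apart had 0.355%. At T32, 7 fell and 2 rose in WT (mt-Atp6, 1.15, and mt-Nd4l, 1.19), where 21.9% and 24.5% of all genes did. In KO 10 fell, where 20% of all genes did. Between the labels at T32, 4 were lower in KO, where 3.34% of all genes were. They were led by mt-Atp6 (-3.23), mt-Nd4l (-2.85) and mt-Co3 (-2.60), which had at most 8.79, 0.403 and 9.35 CPM in any library. Of 7 further genes tested, of these complexes or working with them but outside the symbol rule, cytochrome c, Cycs, rose by 2.54 in WT at T6. Cytochrome c1, Cyc1, rose in WT at T16 (0.71) and T32 (0.46) and was lower in KO at T16 (-0.53). Atpif1 fell at T16 and T32 in WT (-1.11 and -1.20) and in KO (-1.25 and -1.15).

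Of 44 assembly factors, 7 rose and 21 fell in WT at T6, where 27.3% and 31.9% of all genes tested did. Sco1, a copper chaperone for complex IV, rose by 3.61, Coa5 by 1.94 and Cox18 by 1.55, while Sco2, the relative of Sco1, changed by -2.42, Lyrm7 by -2.21 and Sdhaf1 by -2.18. By T16, 10 were higher than at T0 and 1 lower, where 18.8% and 17.2% of all genes were. Of 19 genes of the tricarboxylic acid cycle and pyruvate oxidation, 3 rose and 6 fell at T6, beside the same 27.3% and 31.9% of all genes. Fumarase Fh1 (-1.63), Idh2 (-1.47) and Idh3g (-1.14) were among those that fell, and Dld (0.90) and citrate synthase Cs (0.52) rose. At T16, 8 rose and 5 fell, with Suclg1 (1.21) and Mdh2 (1.13) among the rises, beside 18.8% and 17.2% of all genes. Between the labels at T16, 5 of the 19 were lower in KO, where 3.48% of all genes were, led by Fh1 (-0.84), and so were 4 assembly factors, led by Sco2 (-1.21).

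Of 15 coenzyme Q and carrier genes tested, 1 rose and 8 fell in WT at T6, beside 27.3% and 31.9% of all genes. Pdss1, which makes the isoprenoid tail of coenzyme Q, rose by 2.91, and Coq8a (-3.01), Coq9 (-1.25) and Coq7 (-1.08), of its synthesis, fell. Between the labels at T16, 3 were lower in KO, beside 3.48% of all genes, led by the ADP/ATP carrier Slc25a4 (-0.87). Of 17 regulators tested, 5 rose and 5 fell at T6, beside the same 27.3% and 31.9% of all genes. Ppargc1b, a coactivator of respiratory genes, rose by 2.47, and Gabpa and Gabpb1, the subunits of GABP, by 1.19 and 1.03. Polg2 (-2.37) and Twnk (-2.05), which copy mitochondrial DNA, and Polrmt (-1.30), which transcribes it, fell. Polrmt was the 1 regulator lower in KO at T16 (-0.60).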

How the data were processed

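Polyadenylated RNA of 23 libraries was prepared with the TruSeq RNA v2 kit, which does not mark strand, and read as single 50-base ends on a HiSeq4000, per the labels' protocols, so that reads of overlapping genes on opposite strands cannot be told apart. Reads were aligned to GRCm38 with GSNAP, per the submitters' processing notes. The deposited values are counts of reads aligning uniquely to each gene model, per the file headers. Counting tool and annotation release are named in no label or header. Groups followed the labels. Genes passing filterByExpr (15782) were fitted in all 23 libraries with edgeR 4.0.16 (R 4.3.3): TMM scaling, the robust quasi-likelihood test, a mean per group, Benjamini-Hochberg adjustment over all genes tested, and calls at an adjusted p under 0.05. The code was tested on simulated data. SE is the log2 change divided by the root of F. Levels per kb use the deposited gene sizes. Alternatives were DESeq2 1.42.0, other scalings, no filter, a sex term, single time points and leaving out each library; fits without libraries that stood apart, with a gene size trend removed, with a block by the order of sample numbers, and on counts summed over times were added after seeing the data. Named were up to 6 called genes per direction with the largest change and at least 5 CPM, core subunits, tissue isoforms, and up to 3 genes per direction of related lists, and some genes that this rule covers are not reported here. The genes and lists were chosen with earlier results of these data known.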

Additional observations from a re-analysis of the deposited data

How the results depend on the processing

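The titles number the samples in 1 run, with libraries of the 2 labels in turn within each time, and no label says that a place in this order marks a culture. Deviations from the group means of libraries of 1 label with the same place at different times correlated over 0.1 in 14 of 15 WT pairs (r of 0.00996 to 0.51) and 9 of 18 KO pairs (-0.43 to 0.35), against 2 of 30 and 5 of 36 with different places, a hint from the data and not from the design. Between the labels at 1 time, 5 of 11 pairs with the same place correlated over 0.1 (-0.11 to 0.59), against 4 of 22 with different places. The highest r was that between replicate 2 of WT T6 and replicate 2 of KO T6. The block described next was not fitted for the comparisons of KO with WT. The 4 WT libraries with Y-linked RNA all had the same place. With the place within a label as a replicate block, added after seeing the data, every count of subunit genes called in the LPS comparisons stayed within 1.5 times, with 11 falls for WT T32 (from 8), 16 rises for WT T32 against T6 (from 13), 15 falls for KO T6 (from 13), 27 falls for KO T16 (from 24), 11 falls for KO T32 (from 9), 12 rises for KO T32 against T6 (from 10) and 11 falls for KO T32 against T6 (from 9) and 0 joint calls. Counts of subunit genes called that moved by over 1.5 times follow, with the count of the fit to all 23 libraries in brackets; which step of a setting moved them was not tested. With DESeq2 as the tool, the falls numbered 8 for KO T6 (from 13) and 2 for KO against WT at T32 (from 0) and the rises numbered 5 for KO T32 against T6 (from 10). With DESeq2's size factors, the falls numbered 8 for KO T6 (from 13) and the rises numbered 7 for WT T32 against T6 (from 13) and 4 for KO T32 against T6 (from 10). With counts summed per place over T0, T6 and T32, the falls numbered 0 for KO against WT on average (from 19). With the gene size trend removed, the falls numbered 17 for WT T32 (from 8), 15 for WT T32 against T6 (from 6), 7 for KO against WT at T16 (from 11), 1 for KO against WT at T32 (from 0) and 11 for KO against WT on average (from 19) and the rises numbered 12 for WT T6 (from 6), 16 for WT T32 (from 10), 14 for KO T6 (from 7), 10 for KO T16 (from 4) and 13 for KO T32 (from 8). Without KO T0 replicate 1 and WT T16 replicate 2 together, the falls numbered 14 for KO T32 (from 9), 0 for KO against WT at T16 (from 11), 2 for KO against WT at T32 (from 0) and 11 for KO against WT on average (from 19) and the rises numbered 4 for WT T16 (from 14) and 7 for KO T16 (from 4). Without WT T6 replicate 2 and KO T6 replicate 2 together, the falls numbered 30 for WT T6 (from 13), 14 for WT T16 (from 6), 23 for WT T32 (from 8), 41 for KO T6 (from 13), 21 for KO T32 (from 9), 3 for KO T32 against T6 (from 9), 35 for KO against WT at T16 (from 11), 3 for KO against WT at T32 (from 0) and 46 for KO against WT on average (from 19) and the rises numbered 22 for WT T32 against T6 (from 13) and 25 for KO T32 against T6 (from 10). Scaled to library totals, the falls numbered 67 for WT T6 (from 13), 23 for WT T16 (from 6), 24 for WT T32 (from 8), 1 for WT T32 against T6 (from 6), 64 for KO T6 (from 13), 61 for KO T16 (from 24), 33 for KO T32 (from 9), 1 for KO T32 against T6 (from 9), 18 for KO against WT at T16 (from 11), 11 for KO against WT at T32 (from 0) and 58 for KO against WT on average (from 19) and the rises numbered 0 for WT T6 (from 6), 3 for WT T16 (from 14), 4 for WT T32 (from 10), 40 for WT T32 against T6 (from 13), 0 for KO T6 (from 7), 1 for KO T16 (from 4), 1 for KO T32 (from 8) and 30 for KO T32 against T6 (from 10). With no filter on low counts, the falls numbered 3 for WT T32 against T6 (from 6), 3 for KO T32 against T6 (from 9) and 6 for KO against WT at T16 (from 11) and the rises numbered 3 for WT T6 (from 6), 8 for WT T32 against T6 (from 13), 2 for KO T16 (from 4) and 4 for KO T32 (from 8). In fits to the libraries of 1 time point, the falls numbered 0 for KO against WT at T16 (from 11) and 9 for KO against WT at T32 (from 0). With a term for the sex of the culture, read from Y-linked RNA, the falls numbered 4 for KO against WT at T16 (from 11) and 8 for KO against WT on average (from 19). Leaving out 1 library at a time gave 3 to 7 rises for WT T6, 6 to 19 falls for WT T6, 4 to 18 rises for WT T16, 6 to 11 rises for WT T32, 4 to 16 falls for WT T32, 8 to 17 rises for WT T32 against T6, 2 to 9 falls for WT T32 against T6, 8 to 34 falls for KO T6, 1 to 5 rises for KO T16, 13 to 30 falls for KO T16, 2 to 9 rises for KO T32, 4 to 16 falls for KO T32, 4 to 19 rises for KO T32 against T6, 2 to 13 falls for KO T32 against T6, 0 to 37 falls for KO against WT at T16, 0 to 2 falls for KO against WT at T32, 10 to 55 falls for KO against WT on average and 0 to 6 joint calls for genotype by LPS, all times. Of 8763 single-gene values with 1 library left out, 8294 kept their side of the threshold, 384 lost the call and 85 gained one. Of values called in either fit, 0 changed direction. Changes of direction among values called in neither fit were not counted. Among values called in either fit, scaling to library totals turned the direction of these log2 changes: in WT T6, Atp5a1 -0.27, Atp5f1 -0.24, Atp5g3 -0.57, Cox6a1 -0.77, Cox6b1 -0.73, Ndufs4 -0.15, Uqcrc1 -0.70, Uqcrc2 -0.42 and Uqcrfs1 -0.34, in WT T16, Atp5a1 -0.054 and Uqcrc1 -0.039, in WT T32 against T6, Ndufs1 0.49, in KO T6, Atp5a1 -0.35, Atp5b -0.044, Atp5f1 -0.22, Cox4i1 -0.77, Cox6a1 -0.71, Cox7a2 -0.29, Ndufs4 -0.027, Uqcrc1 -0.74 and Uqcrfs1 -0.22, in KO T16, Atp5a1 -0.41, Sdhb -0.0041, Uqcrc1 -0.44 and Uqcrc2 -0.093, in KO T32 against T6, Atp5a1 0.059, Ndufs1 0.43 and Sdha 0.46. Values called in neither fit are not listed and may also have turned. Without the T6 libraries that stood apart, Cox5a changed by -0.68 in KO at T6. The number of libraries limits precision most at WT T16, with 2, and depth limits it for Cox6b2, Ndufa4l2 and Atp5g1, which have few reads.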
